A study of Mus musculus with 22 samples.

Results

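The 9 genes described here mark the granule cell lineage of the mouse cerebellum: Atoh1, Barhl1, Barhl2, Zic1, Zic2, Pax6, Neurod1, Cbln1 and Cbln3. They were chosen by name, out of 20125 gene symbols that could be assigned to probes of the array. 6 of them are genes of granule cell precursors (Atoh1, Barhl1, Barhl2, Zic1, Zic2 and Pax6), and 3 are genes of differentiating or differentiated granule cells (Neurod1, Cbln1 and Cbln3). Each gene was read from its RefSeq-identified probe with the highest median over the arrays.

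The RNA came from whole brains of 3 untreated male mice of the inbred strain C57BL/6J, cut along the coronal, horizontal or sagittal plane, with 1 mouse for each plane. The titles of the series and its samples give their age as postnatal day 7, which is used here and matches the number of fractions in the study's account of that age, while the age field of the labels reads 3 days. The coronal series held 10 fractions, and the horizontal and the sagittal series 6 each, a fraction being the pooled slices of a slab that spans the whole brain. A slab is recorded as 100 slices of 5 μm, 500 μm in all. That is the fraction thickness the study lists for 3 days and not the one for 7 days, so the records conflict on age. Each of the 22 fractions was hybridised once, so a value has no replicate, and the spread between mice of one plane was not measured. Levels are given in log2 units relative to the 75th percentile of all probe intensities on the same array, so a level of 0 is that percentile and 1 unit is a doubling. Levels of different genes come from different probes and are not set against each other.

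Granule cells are the most numerous neurons of the brain. Their precursors arise at the rhombic lip, cover the surface of the young cerebellum as the external granular layer and divide there in the first postnatal weeks, driven by Sonic hedgehog from Purkinje cells. Cells that leave the cycle switch on differentiation genes in the inner part of this layer, migrate inward past the Purkinje cells and mature in the internal granular layer. In the first postnatal week precursors and young granule cells are therefore present side by side, and a slab that cuts the cerebellum holds both. Several of these genes also act elsewhere, for example Pax6 in the olfactory bulb and cortex, Zic1 and Zic2 in the septum and thalamus, Barhl1 in the midbrain and mammillary region, and Neurod1 in the hippocampus and cortex.

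Atoh1 and Neurod1 encode basic helix-loop-helix factors, a family that binds the E-box, whose letters are CANNTG on both strands. Promoter sequences from RefSeq (GRCm38.p6) were at hand for 7 of the 9 genes, with 9 start sites in all. Shown are the 250 bases before the start site, 5′ to 3′ on the strand of the gene, for the factors Atoh1 and Neurod1 and for Barhl1 and Zic1, 2 transcription factor genes of the precursors. Capitals mark each E-box.
Atoh1 (chr6:64728875-64729124, plus strand): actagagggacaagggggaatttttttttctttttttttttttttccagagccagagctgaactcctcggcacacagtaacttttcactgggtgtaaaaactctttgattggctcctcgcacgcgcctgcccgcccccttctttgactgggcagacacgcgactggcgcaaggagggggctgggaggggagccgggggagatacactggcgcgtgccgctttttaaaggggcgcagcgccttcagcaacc
Barhl1, the upstream one of its listed starts (chr2:28916669-28916918, minus strand): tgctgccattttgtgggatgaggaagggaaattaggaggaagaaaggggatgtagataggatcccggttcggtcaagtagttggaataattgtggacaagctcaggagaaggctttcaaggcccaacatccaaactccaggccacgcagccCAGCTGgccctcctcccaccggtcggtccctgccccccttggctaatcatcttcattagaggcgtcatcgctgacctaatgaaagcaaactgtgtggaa
Zic1 (chr9:91365769-91366018, minus strand): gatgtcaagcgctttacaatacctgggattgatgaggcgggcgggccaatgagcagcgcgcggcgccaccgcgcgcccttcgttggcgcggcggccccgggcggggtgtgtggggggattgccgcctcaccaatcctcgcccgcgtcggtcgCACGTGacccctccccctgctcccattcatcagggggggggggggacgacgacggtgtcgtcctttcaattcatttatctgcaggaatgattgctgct
Neurod1 (chr2:79456637-79456886, minus strand): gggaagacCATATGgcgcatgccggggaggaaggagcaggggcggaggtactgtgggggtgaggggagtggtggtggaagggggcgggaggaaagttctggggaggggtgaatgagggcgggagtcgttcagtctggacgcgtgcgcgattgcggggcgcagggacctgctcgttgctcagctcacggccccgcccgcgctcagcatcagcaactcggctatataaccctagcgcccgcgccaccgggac
The Barhl1 promoter holds an E-box of the letters CAGCTG, which begins 99 bases before the start, and its other listed start has one that begins 15 bases before it. CAGCTG was found in 13.0% of the 250-base windows of all 32851 listed promoters. The E-box of Zic1 begins 98 bases and that of Neurod1 242 bases before the start, and the Atoh1 window holds none. Any E-box occurs in 66.2% of all windows and in 7 of the 9 windows of these genes, so its presence does not set them apart. A match is a description of letters, not a measured binding site.

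Along the coronal series 8 of the 9 lineage genes were highest in fraction 2 or 3, and Barhl2 in fraction 8. Atoh1, Zic2, Pax6, Neurod1 and Cbln3 peaked in fraction 2, and Barhl1, Zic1 and Cbln1 in fraction 3. The spike-in slope was out of range on the arrays of fractions 1 and 2 and in range on that of fraction 3. Fraction 2 also lay on a slide of its own and had 40156 probes detected, the most of the coronal series. The anatomical end at which the numbering starts is not given in the labels. The summed level of 6 hindbrain markers was highest in fraction 1, at 5.15, and the summed level of 4 telencephalic markers was at most 0.94 in fractions 1 to 3 and at least 4.47 in the others. En2, a transcription factor gene of the cerebellum and midbrain, peaked in coronal fraction 2 at 3.17 and was lowest in fraction 9 at -2.63. These markers place the hindbrain and cerebellar end of the brain at the low fraction numbers. Of the 9 genes, 7 were measured well above background in at least 1 fraction of each series and were tested, and Barhl2 and Cbln3 were not.

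**Figure D1:**
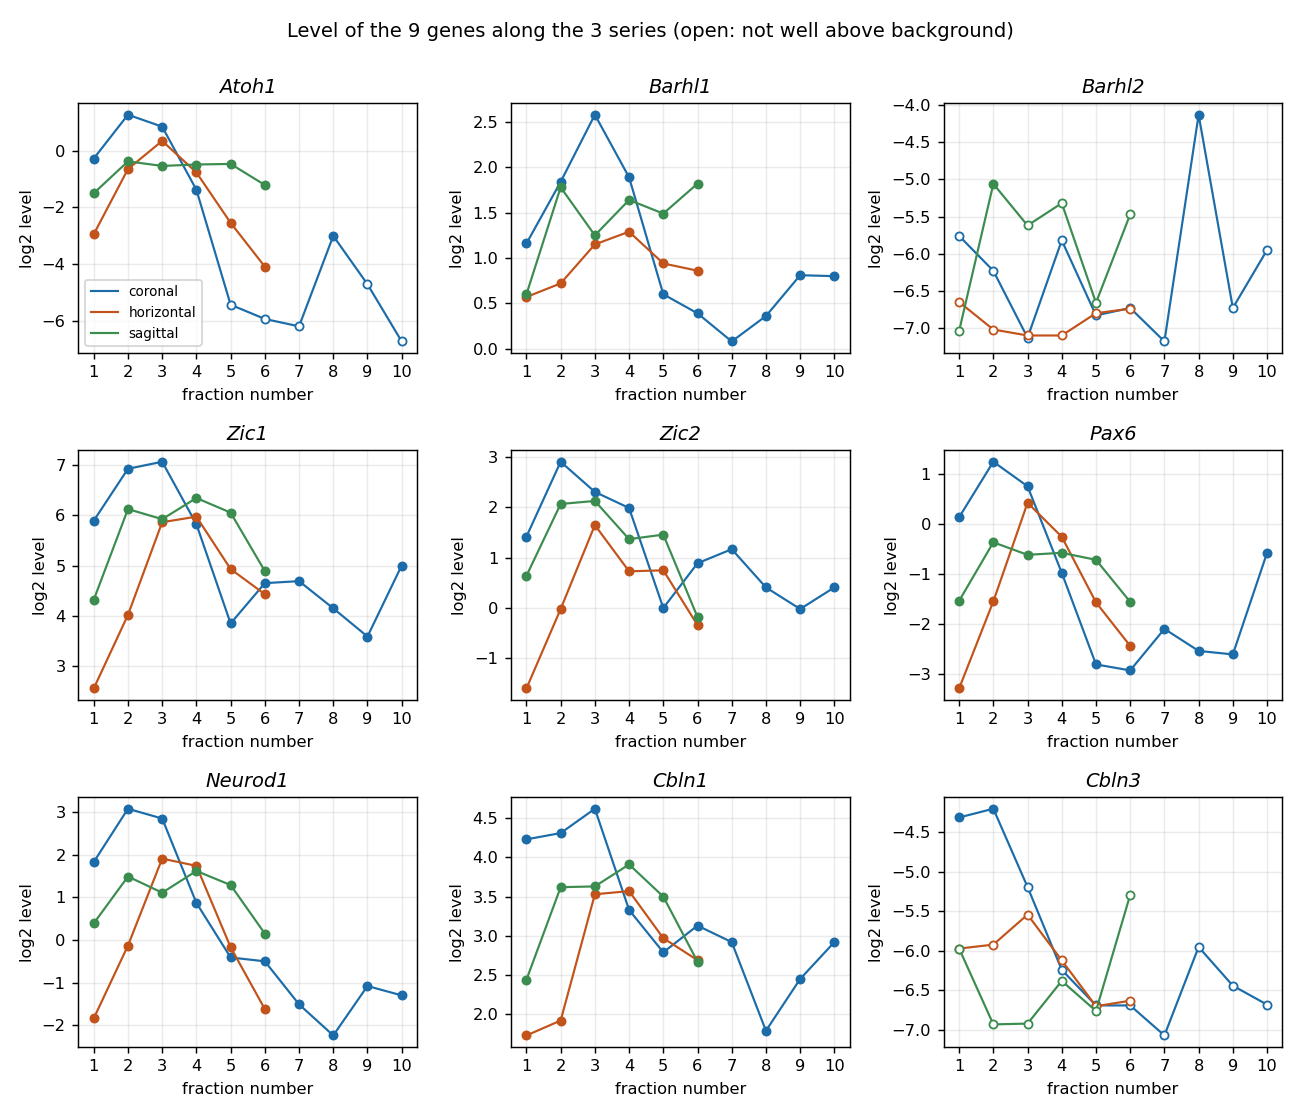
Log2 level (vertical axis, in log2 units relative to the array's 75th percentile) against fraction number (horizontal axis) for the 9 genes, 1 point per array, with the coronal series in blue, the horizontal in orange and the sagittal in green; each panel has its own vertical scale, and open points were not well above background. Atoh1 stood at 1.26 in coronal fraction 2 and did not clear the background in fractions 5, 6, 7, 9 and 10 of that series, while Cbln1 stayed between 1.79 and 4.62 along that series.

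Position along the coronal series was tested in limma with a linear and a quadratic term per series over all 22 arrays. 6 of the 7 tested genes passed an adjusted p of 0.05, and all 6 fell with fraction number: Atoh1, Zic1, Zic2, Pax6, Neurod1 and Cbln1. Among all 39621 probes tested, 19.8% passed and 7.43% passed with a level that fell. The median linear change of the 7 genes from the first to the last coronal fraction was -2.65, against -0.14 over all probes tested. With slide as a fixed block the count was 1 (Neurod1), where 4.03% of all probes passed, and with the linear term alone it was 3, where 7.12% did. In a limma model of the 10 coronal arrays alone it was 0, where 1.6% of all probes passed. There 6 of the 7 genes had an unadjusted p under 0.05 in limma, as did 28.0% of all probes. The slides follow position in part, since coronal fractions 1 and 3 to 8 lay on slide 1, fraction 2 on slide 2 and fractions 9 and 10 on slide 3 with the sagittal arrays.

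Atoh1, the factor that specifies granule cell precursors, is switched off as they differentiate. Its coronal levels in fractions 1 to 4 were -0.28, 1.26, 0.84 and -1.38. In fractions 5, 6, 7, 9 and 10 it was not well above background, with values of -5.42, -5.92, -6.18, -4.70 and -6.71. Fraction 8 stood out among these with a detected level of -3.00, so the fall was not smooth. Against the weakest signal that counted as detected on each array or the own reading of Atoh1, whichever was higher, Atoh1 in fraction 2 was at least 87.9-fold higher than in fraction 5, at least 77.8-fold than in fraction 6, at least 145.0-fold than in fraction 7, at least 62.6-fold than in fraction 9 and at least 113.0-fold than in fraction 10. The weakest detected signal is not a limit of the probe itself. In fraction 9 Atoh1 read above it, at -4.70 against -5.31, and was not detected. These folds, and those given below for Barhl2 and Cbln3, hold against that measure only. The fitted linear change was -7.48 ± 1.39 (SE; limma adjusted p = 0.00656), a value that uses the background readings as they are and is not a bound. It was -3.38 after normexp background correction and -5.35, with an adjusted p of 0.102 in limma, on the 15 arrays with the spike-in slope in range.

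Barhl1, a homeobox factor that precursors express after Atoh1, gave a different size on each of its 2 probes. On the probe with the higher median the coronal levels in fractions 1 to 4 were 1.16, 1.84, 2.58 and 1.89. In fractions 5 to 10 they were 0.60, 0.39, 0.08, 0.36, 0.81 and 0.80, so that every level in the first 4 fractions was above every level in the other 6. The linear change of -1.50 ± 0.54 did not pass (limma adjusted p = 0.104). Without coronal fraction 1 it did, at -1.75 with a limma adjusted p of 0.00767. The other probe ran from 3.42 in fraction 3 to -4.34 in fraction 8, where it was not well above background, and its change was -7.79 ± 1.25 (limma adjusted p = 0.00332). The levels of the probes correlated with r = 0.788 over the 22 fractions, which share series and array, and which of them follows the Barhl1 transcript more closely was not tested.

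Barhl2, a homeobox gene related to Barhl1, was at the limit of the array. It was well above background only in coronal fraction 8, at -4.13, and in sagittal fraction 2, at -5.06. Its other coronal values lay between -7.18 and -5.76, so that fraction 8 was at least 1.85-fold to at least 3.46-fold above them. In the low-numbered coronal fractions, where Atoh1 peaked, Barhl2 was not well above background. Without the filter on dim probes, where 11.8% of 55600 probes passed for coronal position, Barhl2 had a linear change of 0.34 ± 0.82 (limma adjusted p = 0.764).

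Zic1 and Zic2 encode zinc finger factors that keep precursors in division and stay on in granule cells. Zic1 read 5.89, 6.92, 7.06 and 5.82 in coronal fractions 1 to 4. From fraction 5 to 10 it read 3.85, 4.65, 4.69, 4.15, 3.59 and 5.00, so it remained detected along the whole series and was higher at the far end than in fraction 9. The linear change was -2.65 ± 0.68 (limma adjusted p = 0.0247), and the highest fraction was 11.1-fold above the lowest. Without coronal fraction 2 the adjusted p in limma was 0.0868, and without fraction 9 it was 0.0558. A second Zic1 probe changed by -1.94 ± 0.57 (limma adjusted p = 0.0393).

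Zic2 read 1.42, 2.91, 2.31 and 1.99 in coronal fractions 1 to 4. It then read 0.00, 0.89, 1.17, 0.41, -0.02 and 0.41, again with every early fraction above every late one. Its change of -2.25 ± 0.62 was just past the threshold (limma adjusted p = 0.0452). It stayed past it in 4 of 22 fits that each left out 1 array, and the p ranged from 0.00432 without coronal fraction 1 to 0.142 without coronal fraction 2.

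Pax6, a paired homeobox factor of the rhombic lip and the external granular layer, had 2 high ends. Its coronal levels were 0.13, 1.24, 0.75 and -0.98 in fractions 1 to 4 and -2.81, -2.93, -2.10, -2.54 and -2.61 in fractions 5 to 9. In fraction 10 it was -0.58, above the preceding 5 fractions and fraction 4, which is 28.3% of its peak. The summed level of 6 olfactory bulb markers was also highest in fraction 10, at 6.40 against 1.83 to 3.59 in the other coronal fractions, and their part in the Pax6 level was not tested. The linear change was -2.86 ± 0.76 and the fitted curve spanned 3.93 units (limma adjusted p = 0.00882). The second Pax6 probe, detected in 12 of 22 fractions, changed by -2.32 ± 0.73 (limma adjusted p = 0.0156).

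Neurod1, the helix-loop-helix factor of cells that leave the cycle, had the smallest coronal p of the 7 tested genes. It read 1.83, 3.08, 2.85 and 0.87 in fractions 1 to 4. It then read -0.41, -0.50, -1.51, -2.24, -1.08 and -1.30 and was detected in each fraction, with fraction 2 being 39.8-fold above fraction 8. The change was -4.98 ± 0.73 (limma adjusted p = 0.00169), and the second probe gave -5.04 ± 0.77 (limma adjusted p = 0.00194) with r = 0.981 between the probes over 22 fractions. It was also the one gene of the lineage to pass with slide as a fixed block, at -6.73 with a limma adjusted p of 0.0121. On the 10 coronal arrays alone its adjusted p in limma was 0.0535.

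Cbln1 encodes a secreted protein that granule cells release from parallel fibres and that maintains their synapses on Purkinje cells. Its coronal levels were 4.23, 4.31, 4.62 and 3.33 in fractions 1 to 4. In fractions 5 to 10 they were 2.79, 3.13, 2.92, 1.79, 2.45 and 2.92, a plateau rather than a loss of signal. The change was -2.19 ± 0.45 (limma adjusted p = 0.00886), and fraction 3 was 7.09-fold above fraction 8.

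Cbln3, a relative of Cbln1 made by cerebellar granule cells late in their maturation, was detected only in coronal fractions 1 and 2, at -4.31 and -4.20. All its other values, in every series, lay between -7.07 and -5.19 and were not well above background. Fraction 2 was at least 1.77-fold to at least 3.32-fold above coronal fractions 3 to 10. Without the filter on dim probes its coronal change was -2.40 ± 0.42 (limma adjusted p = 0.00282), a fit that rests on readings at background in 8 of 10 fractions. Coronal fractions 1 and 2 were also the arrays of that series with the spike-in slope out of range, and they detected 37496 and 40156 probes. The Cbln3 level correlated with the number of probes detected on an array, with r = 0.515 over the 22 fractions. Position and array quality cannot be told apart for its detection.

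Along the coronal series most steps between levels in order of size were within the scatter of the gene. The residual standard deviation around the fitted curves was 1.45 for Atoh1, 0.76 for Neurod1, 0.45 for Cbln1 and 0.55 for Barhl1. Between fractions next to each other in order of level, 7 of 9 coronal steps of Atoh1 were smaller than its own residual value, 6 of 9 for Neurod1 and 7 of 9 for Cbln1. The step between the 2 highest coronal fractions was 0.42 for Atoh1, 0.22 for Neurod1 and 0.31 for Cbln1, within that scatter in each case. For these 3 genes, which of fractions 2 and 3 held most of the transcript was thus not resolved. For Barhl1, on the probe used, the step from fraction 3 to the next highest, fraction 4, was 0.69, against a residual value of 0.55. A difference of 2 single readings scatters more than 1 reading does, so this peak was not resolved either. On the other Barhl1 probe the next highest after fraction 3 was fraction 2.

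In the horizontal series each of the 7 tested genes had its highest level in fraction 3 or 4, and 1 passed the test. Atoh1, Zic2, Pax6 and Neurod1 peaked in fraction 3, and Zic1, Cbln1 and Barhl1 in fraction 4. Only Neurod1 passed the test of horizontal position (limma adjusted p = 0.0338), 1 of 7 against 6.57% of all probes. Its levels were -1.84, -0.13, 1.91, 1.74, -0.17 and -1.62 from fraction 1 to 6, a hump with nearly the same value at both ends and a linear change of 0.11 ± 0.86. Leaving out any 1 of the horizontal fractions, or sagittal fraction 4, 5 or 6, brought the count to 0. Over all 39621 probes the calls fell as well, from 2604 to between 9 (without horizontal fraction 1) and 1283 (without sagittal fraction 6). Leaving out coronal fraction 1, 2 or 3 brought the members' count to 4, with 3792, 6529 and 3630 probes called in all. Leaving out coronal fraction 5 or 10 brought it to 3, with 1530 and 4363 called.

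The other tested genes missed the threshold. Zic1 read 2.56, 4.02, 5.86, 5.97, 4.93 and 4.43 (limma adjusted p = 0.0514). Zic2 read -1.60, -0.02, 1.65, 0.73, 0.75 and -0.34 (limma adjusted p = 0.06). Pax6 read -3.29, -1.55, 0.42, -0.26, -1.57 and -2.44 (limma adjusted p = 0.0614). In all 3 genes fraction 1 was the lowest of the series.

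In horizontal fraction 6, of the 7 tested genes, only Barhl1 on the probe used kept more of its peak level than Cbln1, at 74.3% against 54.3%. The other tested genes were at 34.3% or less there. Cbln1 read 1.73, 1.92, 3.53, 3.57, 2.97 and 2.69 (limma adjusted p = 0.0774). On the probe used, Barhl1 read 0.57 in fraction 1, 1.29 in fraction 4 and 0.86 in fraction 6 (limma adjusted p = 0.685). Its other probe ranged wider, from -1.12 in fraction 6 to 2.07 in fraction 3, and did not pass either (limma adjusted p = 0.196). Atoh1 read -2.94, -0.65, 0.34, -0.77, -2.54 and -4.08, the widest horizontal range at 21.4-fold, and did not pass (limma adjusted p = 0.14). Horizontal fractions 1 to 3 were also the 3 arrays of that series whose spike-in slope was out of range, and all 6 lay on 1 slide. Fitted on the horizontal arrays alone, none of the 7 passed in limma, although 6 had an unadjusted p under 0.05, and Neurod1 had an adjusted p of 0.181. That fit called 0 of all 39621 probes, so the adjusted count of 0 is no result about these genes. Of all probes 26.8% had an unadjusted p under 0.05 in limma, a smaller share than 6 of 7, and this difference was not tested.

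None of the 7 tested genes passed for position along the sagittal series, and the levels are given as a description. Neurod1 read 0.39, 1.49, 1.11, 1.62, 1.29 and 0.15, and Cbln1 read 2.44, 3.62, 3.63, 3.91, 3.50 and 2.67. Atoh1 read -1.50, -0.38, -0.54, -0.49, -0.47 and -1.21, with its 4 middle fractions between -0.54 and -0.38. Zic1 rose from 4.32 in fraction 1 to 6.34 in fraction 4 and was 4.89 in fraction 6. Pax6 likewise read -1.54 and -1.56 at the ends and between -0.72 and -0.37 in the middle. Zic2 was lowest at the last end, from 2.13 in fraction 3 to -0.18 in fraction 6.

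The Barhl1 probes differed here. The probe used had its highest sagittal level in end fraction 6, at 1.82, and its lowest in end fraction 1, at 0.60, while the other read 0.01 and 0.24 at the ends and between 1.69 and 1.97 in the middle. The count of 0 held for the sagittal linear term, where 10.2% of all probes passed, and for the quadratic term, where 0.0303% did. Without sagittal fraction 6 the linear calls over all probes in limma went from 4045 to 0, with 2200 probes at an unadjusted p under 0.05. At an unadjusted p under 0.05 in limma the linear term had 0, where 24.0% of all probes had one, and the quadratic term 3, where 14.8% did, namely Cbln1 (0.0103, adjusted p = 0.177), Zic2 (0.0155, adjusted p = 0.209) and Zic1 (0.0213, adjusted p = 0.236). Fitted on the sagittal arrays alone, 6 of the 7 had an unadjusted p under 0.05 in limma for the quadratic term, where 22.4% of all probes did. For the linear term 0 had one, where 32.2% did. No probe at all passed in that fit. The tests over all 22 arrays leave wide intervals: for Atoh1 the 95% interval of the linear change ran from -3.57 to 3.83.

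The test of a precursor gene against differentiation genes used Atoh1 alone and was made inside each array, as the difference between Atoh1 and Neurod1, Cbln1 or Cbln3, so that the scaling of the array drops out. What was read is how this difference changed with slab position, by permuting the order of fractions, two-sided, exactly for the 6-fraction series and with 100000 resamples for the coronal series. In all, 9 pairs were compared, and none passed after Benjamini-Hochberg adjustment.

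Along the coronal series Atoh1 fell relative to Cbln1 by 0.557 ± 0.203 (SE) per slab on the log2 scale (permutation p = 0.0307, adjusted p = 0.133). Relative to Cbln3 it fell by 0.535 ± 0.159 per slab (permutation p = 0.0132, adjusted p = 0.119), a difference in which Cbln3 was at background in 8 of 10 fractions. Against Neurod1 the slope was -0.263 ± 0.172 per slab (permutation p = 0.163, adjusted p = 0.292). The slopes against Cbln1 and Cbln3 thus had raw p-values under 0.05 that were lost on adjustment, and Atoh1 itself was at background in 5 of these 10 fractions, which makes each slope depend on how background was treated. After normexp background correction, which compresses low values, the slope against Neurod1 was 0.0794 and that against Cbln1 -0.128. In coronal fractions 1 to 4 the difference of Atoh1 from Cbln1 was -4.51, -3.05, -3.78 and -4.71, without a steady fall. Cbln1 was detected in every coronal fraction, and which cells gave its level in fractions 5 to 10 was not tested.

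The other precursor genes are set beside Atoh1 as a description without a test, and what they show depends on the partner gene and on the fraction taken as the start. Relative to Neurod1, Atoh1 stood at -2.11 in fraction 1, -1.81 in fraction 2 and -5.42 in fraction 10, where it was not well above background. In the same 3 fractions the Barhl1 probe used stood at -0.66, -1.24 and 2.09, Zic1 at 4.06, 3.85 and 6.30, Zic2 at -0.41, -0.17 and 1.71, and Pax6 at -1.70, -1.84 and 0.72 relative to Neurod1. These 4 probes were thus higher in fraction 10 than in either start fraction. Relative to Cbln1 the order was not the same from both starts. Zic1 stood at 1.66, 2.61 and 2.07, Zic2 at -2.81, -1.40 and -2.52, and Pax6 at -4.10, -3.07 and -3.50, each higher in fraction 10 than in fraction 1 and lower than in fraction 2. In fraction 9, Zic1 and Pax6 stood at 1.14 and -5.06 relative to Cbln1, below both starts. The Barhl1 probe used stood at -3.06, -2.47 and -2.13 relative to Cbln1, and Atoh1 at -4.51, -3.05 and -9.64. The other Barhl1 probe was lower in fraction 10 than in either start, as Atoh1 was, at -0.86, -0.27 and -1.72 relative to Neurod1 and at -3.26, -1.50 and -5.94 relative to Cbln1.

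In the horizontal series every Atoh1, Neurod1 and Cbln1 value was above background. The difference of Atoh1 from Neurod1 was -1.11, -0.52 and -1.58 in fractions 1 to 3 and -2.51, -2.37 and -2.47 in fractions 4 to 6. This split falls together with array quality, since fractions 1 to 3 are the arrays of that series with the spike-in slope out of range, so position and array quality cannot be told apart here. Its slope was -0.379 ± 0.114 per slab (exact permutation p = 0.0444, adjusted p = 0.133). For Cbln1 the difference ran from -2.57 in fraction 2 to -6.77 in fraction 6, with a slope of -0.584 ± 0.285 (exact permutation p = 0.10, adjusted p = 0.225). The smallest p that 6 fractions allow is 0.00278, so the design could have passed the threshold. In the sagittal series the slopes were 0.0656 ± 0.0454 against Neurod1 (exact permutation p = 0.194) and 0.00633 ± 0.0425 against Cbln1 (exact permutation p = 0.889).

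**Figure D2:**
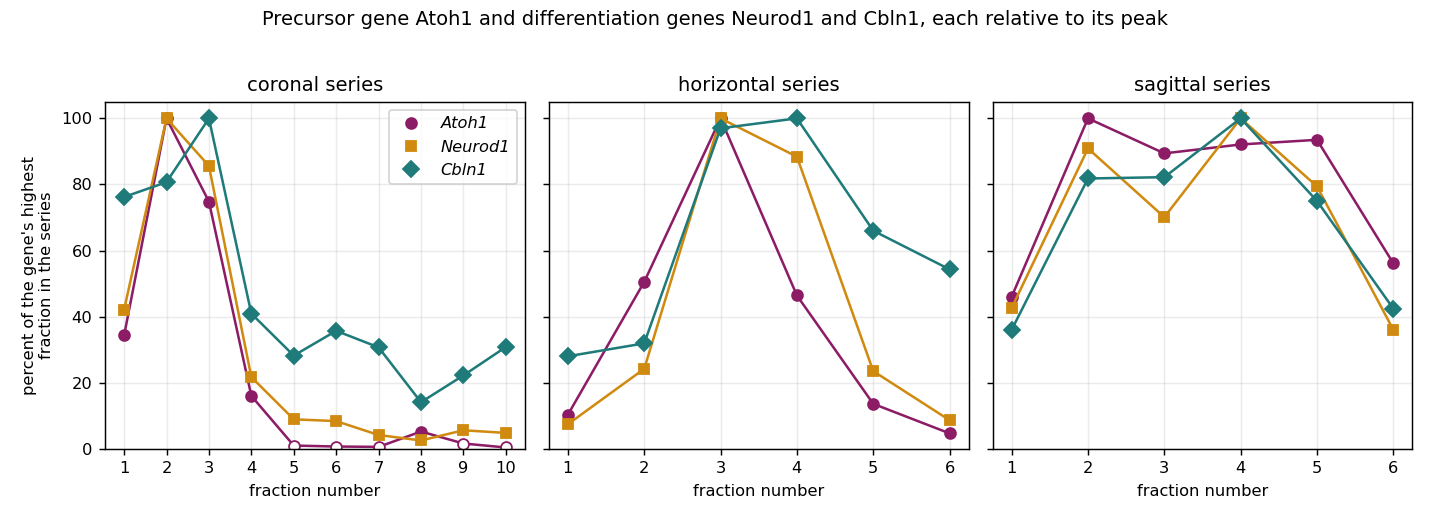
Linear intensity of Atoh1 (circles), Neurod1 (squares) and Cbln1 (diamonds) as a percent of the gene's own highest fraction in the series (vertical axis) against fraction number (horizontal axis), 1 array per point; open circles are Atoh1 values not well above background. In horizontal fraction 2, an array with the spike-in slope out of range, Atoh1 stood at 50.5% of its peak and Neurod1 at 24.2%, while in fraction 4, with the slope in range, Atoh1 stood at 46.4% and Neurod1 at 88.4%; in coronal fraction 4 Cbln1 kept 40.9% against 16.0% for Atoh1.

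The same values are given here as a share of each gene's own peak, as a description. In coronal fraction 1 Atoh1 was at 34.3% and Neurod1 at 42.1% of its peak in fraction 2, and Cbln1 was at 76.2% of its peak in fraction 3. In coronal fraction 4 the shares were 16.0% for Atoh1, 21.7% for Neurod1 and 40.9% for Cbln1. In horizontal fraction 2 Atoh1 was at 50.5%, Neurod1 at 24.2% and Cbln1 at 31.9%. In horizontal fraction 4 Atoh1 was the lowest of the 3, with 46.4% against 88.4% and 100.0%. The spike-in slope was out of range in horizontal fraction 2 and in range in fraction 4, so position and array quality cannot be told apart here. By horizontal fraction 6 Atoh1 was at 4.67%, Neurod1 at 8.65% and Cbln1 at 54.3%. These shares come from single arrays and carry no error of their own. None of the pair slopes passed after adjustment, and Atoh1 scattered by 1.45 log2 units around its fitted curves.

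Over the 22 fractions the genes followed each other to different degrees. The levels of Atoh1 and Neurod1 correlated with r = 0.82, those of Neurod1 and Cbln1 with r = 0.863, and those of Atoh1 and Cbln1 with r = 0.524. Within the coronal (n = 10), horizontal (n = 6) and sagittal (n = 6) series, r was 0.861, 0.873 and 0.916 for Atoh1 and Neurod1, and 0.72, 0.412 and 0.96 for Atoh1 and Cbln1, so their order differed in the sagittal series. Zic1 and Cbln1 correlated with r = 0.924 over the 22 fractions, and with 0.902, 0.955 and 0.986 within the series. These are descriptions over 22 points that share 3 mice, 4 slides and the scaling of each array, and neighbouring slabs are not independent. The Atoh1 level also correlated with the number of probes detected on an array, with r = 0.567, more than did Neurod1, with r = 0.335, or Cbln1, with r = -0.00754, and the part of array quality in these levels was not tested.

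Among 16713 other symbols with a detected probe, those nearest in level to Atoh1 over the 22 fractions were Gdf3, Skor1, Rad54b, Tbata and Pax3, with r from 0.932 to 0.949. Those nearest to Neurod1 were Uncx, Ndst3, Tbata, Kirrel2 and Fgf5, with r from 0.952 to 0.962. For Cbln1 they were Unc5b, Pde1c, Plekhh3, Paqr6 and Tmtc2, with r from 0.931 to 0.951. Tbata was on the list of both Atoh1 and Neurod1, through a different Tbata probe in each. Symbols with r above 0.85 numbered 74 for Atoh1, 184 for Neurod1, 133 for Cbln1 and 0 for Cbln3, whose nearest, Eps8l2, reached 0.848.

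The wider pathway was read from 3 lists. Falls and rises given from here on are fitted linear changes from the first to the last coronal fraction, not differences between measured levels. Of 14 genes of hedgehog signalling and precursor division, all were tested and 7 passed for coronal position, 6 of them falling, against 19.8% of all probes that passed and 7.43% that passed with a falling level. Gli1, the transcription factor that hedgehog signalling switches on, fell by 2.42 on the log2 scale (SE 0.56, limma adjusted p = 0.0211), and its highest level was 1.76 in fraction 3. Hhip, a hedgehog-binding inhibitor, fell by 2.05 (SE 0.30, limma adjusted p = 0.00084). Meis1, a homeobox factor of granule cells, fell by 2.98 (SE 0.71, limma adjusted p = 0.0101). Ptch1, the main hedgehog receptor, and Ccnd1, cyclin D1, fell too, and Cdon, a co-receptor, rose. The median change of this list was -1.22.

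Of 6 genes of the inner external granular layer, 5 passed, with 3 falling and 2 rising, against 19.8% of all probes that passed and 7.43% that fell, and the median was -1.16. Nhlh2 and Nhlh1, helix-loop-helix factors of newly formed neurons, fell by 6.06 (SE 0.83, limma adjusted p = 0.00136) and by 2.25 (SE 0.71, limma adjusted p = 0.0275). Insm1, a zinc finger factor of cells about to become neurons, fell by 3.62 (SE 0.77, limma adjusted p = 0.00917) and peaked in coronal fraction 3 at 5.11. Dcx and Tubb3, microtubule genes of young neurons in every region, were the 2 that rose, with Tubb3 at 1.57 ± 0.24 (limma adjusted p = 0.00253).

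Of 18 genes of differentiated granule cells 8 passed, 4 with a linear change below 0 and 4 above, against the same 19.8% and 7.43%, and the median was 0.17. Gabra6, the GABA receptor subunit restricted largely to granule cells, fell by 8.08 (SE 1.09, limma adjusted p = 0.000716), from 0.04 in coronal fraction 2 to readings at background, and was detected in 12 of 22 fractions. Fat2, a large cadherin of granule cells, fell by 2.28 (SE 0.56, limma adjusted p = 0.023). Slc17a7, the vesicular glutamate transporter that cortical neurons also use, rose by 3.89 ± 0.50 (limma adjusted p = 0.000621). Others that passed had curved profiles with small linear changes, -0.55 for Nfix, 0.74 for Cdh15 and 0.25 for Grm4. Centring each array on its median moved every coronal change by 0.16, and leaving the arrays unscaled moved them by -0.13, which turned 1 small change of this list below 0 and no other called change of the lists used here.

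**Figure D3:**
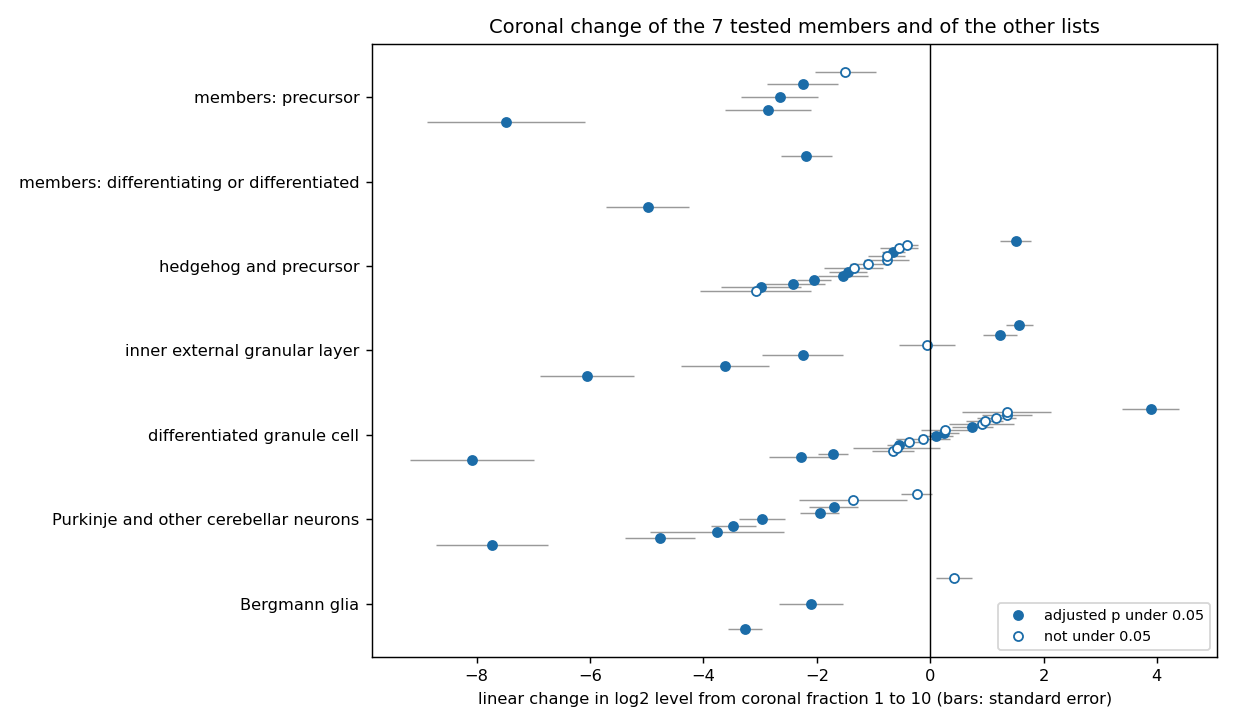
Linear change in log2 level from the first to the last coronal fraction (horizontal axis) for each tested gene of 7 lists (rows), with bars for the standard error; filled points passed a limma adjusted p of 0.05, which 19.8% of all probes did. Among the probes used for the 7 tested lineage genes Atoh1, whose value rests on background readings in 5 of 10 fractions, lies at -7.48 and Barhl1, the open point, at -1.50, against -7.79 on its other probe, which is not drawn, while the list of differentiated granule cell genes spreads from Gabra6 at -8.08 to Slc17a7 at 3.89.

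Along the coronal series genes of other cerebellar cells fell, as most of the tested lineage genes did. Of 9 tested genes of Purkinje cells and other cerebellar neurons, out of 11 listed, 7 passed for coronal position and all 7 fell, against 19.8% of all probes that passed and 7.43% that fell, with a median over the 9 of -2.97. Pcp2, a Purkinje cell gene, fell by 7.73 (SE 0.98, limma adjusted p = 0.000682) and peaked in fraction 3 at 6.70. The summed level of the 11 lay between 6.69 and 7.76 in coronal fractions 1 to 4 and between 5.95 and 6.63 in fractions 5 to 10. In the sagittal series that sum was highest in fraction 6, at 7.68, where Neurod1 was lowest, at 0.15. Of 3 Bergmann glia genes 2 passed and fell, read against the same 7.43%, Hopx by 3.27 and Gdf10 by 2.10. The summed level of these 3 was also highest of the sagittal series in fraction 6, at 5.06. In a slab of whole brain, fewer granule cells in the slab and less of a transcript per granule cell cannot be told apart, and the share of cerebellum in each slab was not measured.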

How the data were processed

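Total RNA of 22 brain fractions was measured on Agilent mouse arrays in 1 colour (Cy3), of mm9 design. Per the file headers, the authors extracted background-subtracted intensity values with Feature Extraction 10.10.1.1. Their deposited table of log2 values has 47544 rows and served as an alternative: in 47478 matched rows, 99.899% of values lay within 0.02 of the scanner intensity scaled to the 75th percentile. No scanner spot was saturated, and control and outlier spots (131 to 187 per array) were left out. Precision is limited by the number of arrays.

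Groups were the section planes in the labels. Each array was scaled to its 75th percentile in log2, which makes levels relative to the other transcripts of that fraction. Of 55600 probes, 39621 were well above background in at least 1 fraction of each series and were tested in limma 3.58.1 (R 4.3.3): each series had its own intercept and its own linear and quadratic dependence on slab position, 9 coefficients, 13 residual degrees of freedom, Benjamini-Hochberg adjustment over all probes and a threshold of 0.05. The model was tested on simulated data. Slabs 10 and 11 were pooled in coronal fraction 10, slabs 1 and 2 in sagittal fraction 1, and slabs 7 to 9 in sagittal fraction 6, and midpoints were used. Symbols were assigned to 26547 of 28087 RefSeq probes through a RefSeq table. Scanner files gave no coordinates for RefSeq probes. The named genes were the 9 members, the 5 nearest symbols to Atoh1, Neurod1, Cbln1 and Cbln3, and up to 4 genes with the largest fitted coronal range among those of each pathway list that passed; other genes named from the lists were chosen after their values were seen. Some genes of these lists count in the totals and are not reported here by name. The members and lists were chosen with earlier results of these data known. The spike-in slope was outside the range that Feature Extraction accepts on 7 arrays: coronal fractions 1 and 2, horizontal fractions 1 to 3 and sagittal fractions 1 and 3. These arrays detected 36119 to 41965 probes, the others 29605 to 36342. Alternatives varied the scaling, background correction (normexp, offset 50, on median signals), filter, probe, model terms and arrays used. Pairs were tested with scipy 1.17.1, numpy 2.4.6 and pandas 2.3.3 under Python 3.11.15, and matplotlib 3.10.9 drew the figures. No array was replicated, so p-values measure scatter around a curve within single mice.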

Additional observations from a re-analysis of the deposited data

Results flagged for a closer look

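In 27 checks of 1 gene in 1 series, 1 fraction stood far from the others by Dixon's test, and chance flags about 1 in 20. Barhl2 in coronal fraction 8, at -4.13, was above the next highest coronal fraction, at -5.76, by 0.535 of the range of the series, against a critical value of 0.466. Barhl2 was not well above background in any other coronal fraction, and the cause was not tested. Atoh1 was also detected in that fraction, at -3.00, with the fractions on either side of it not well above background.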

How the results depend on the processing

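The count of lineage genes past the threshold for coronal position, 6, was 1 with slide as a fixed block (4.03% of all probes passed), 3 with the linear term alone (7.12%) and 0 on the coronal arrays alone (1.6%). It was between 4 and 7 under the other alternatives and between 4 and 7 when 1 array was left out. The count for horizontal position, 1, where 6.57% of all probes passed, was 3 after quantile normalization (8.14%), 4 without scaling (5.82%), 2 after normexp (5.16%), 5 of 6 genes among probes detected in all 22 fractions (16.1%) and 3 with slide as a fixed block (13.6%). It was 0 on the arrays with the spike-in slope in range (0.0328%), 0 with spike-in probe a107 as a covariate (0.103%), 0 with the linear term alone (0.52%), 0 with a cubic term (1.77%) and 0 on the horizontal arrays alone (no probe passed). It was between 0 and 4 when 1 array was left out, where the share of all probes ran from 0.0227% to 16.5%. Both sagittal counts were 0 under every alternative run, and without sagittal fraction 6 no probe at all passed for the linear term. The linear change of Neurod1 in the horizontal series, 0.11, turned to -0.02 after normexp, -3.35 without the 7 arrays of out-of-range slope, -0.14 with the a107 covariate and -0.32 on its second probe, and ran from -2.02 (without horizontal fraction 1) to 2.08 (without horizontal fraction 6) with 1 array left out; without horizontal fraction 4 it was -0.19. The curve is a hump, for which this linear part has no firm sign. The slope of Atoh1 minus Cbln3 along the coronal series was -0.614 per slab after quantile normalization (permutation adjusted p = 0.0144), and the other 8 pairs missed the threshold under all alternatives run. The cause of these differences was not tested. Genes near the background limit what can be read: 5 of 10 coronal Atoh1 values and nearly all those of Barhl2 and Cbln3 are readings not well above background. No paired analysis was possible because fractions with the same number in different series are slabs of different mice and planes.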
